A study of Mus musculus with 6 samples.

Results

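The 9 genes described here encode transcription factors that build and maintain the macrophage lineage: Spi1, Cebpa, Cebpb, Cebpd, Maf, Runx1, Mitf, Tfeb and Tfec. They were taken by gene symbol from the deposited count table, which lists 57010 genes, and each symbol matched 1 row. The comparison asks how their transcripts differ in inflamed macrophages that received vesicles from tendon stem cells of different oxygen history. All libraries came from RAW 264.7 cells, a mouse macrophage-like line transformed by Abelson leukaemia virus. Per the series' design text every culture was first stimulated with lipopolysaccharide (LPS), the bacterial cell wall component that drives an inflammatory state. Afterwards 3 samples received extracellular vesicles of normoxic tendon stem cells (normoxic-EV) and 3 received vesicles of tendon stem cells preconditioned by hypoxia (hypoxic-EV). The vesicle dose, the times, the oxygen level and the species of the stem cells are not stated in those sources, and cells without vesicles were not analysed here. Nothing in the labels says that the 3 samples of a group were separate cultures, so p-values measure a spread that may be technical.

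PU.1, the product of Spi1, is the ETS factor that opens enhancers in myeloid cells and is required for macrophages to form. It works with C/EBP proteins, basic leucine zipper factors that share a recognition sequence but are used at different stages, and with RUNX1, which binds DNA together with its partner CBFB. MAF proteins hold mature macrophages in a non-dividing state, and the MiT factors MITF, TFEB, TFEC and TFE3 bind E-boxes in genes of the lysosome and of autophagy. Much of the control of MiT and C/EBP proteins acts on the protein rather than the transcript, and RNA counts do not show it.

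Library totals ran from 16751665 to 23422328 counts, which sets a count of 3 at 0.128 to 0.179 CPM (counts scaled to library size). Such limits cover counting error only. Of 9 macrophage markers, 8 were expressed above the count filter, and the ninth, Mertk, lay under it. The 9 summed to 10320 to 10760 CPM in normoxic-EV against 8338 to 8744 CPM in hypoxic-EV. Most of each sum was Lyz2, at means of 7946 and 6091 CPM. By the edgeR test given below, Csf1r and Itgam were called higher, 5 markers were called lower and Cd68 was not called. Among all genes tested, 22.7% were called higher and 21.5% lower. All 11 stromal and tendon markers lay under the filter, 5 of them, including Col1a2, Col3a1 and Tnmd, with 0 counts in each library, and their summed level was 0.957 to 1.87 CPM in normoxic-EV against 0.817 to 1.36 CPM in hypoxic-EV. Lymphocyte markers summed to 0.419 to 0.701 CPM in normoxic-EV against 0.868 to 1.08 CPM in hypoxic-EV, with 5 of 9 at 0. Only Cd79a of these passed the filter, at means of 0.304 and 0.789 CPM. It was called higher (edgeR log2 fold change 1.36, adjusted p = 0.00849). Of 11 neutrophil and dendritic cell markers, 1, Elane, had 0 counts, and their sum of 239.6 to 272.7 CPM in normoxic-EV against 99.4 to 122.7 CPM in hypoxic-EV was mostly S100a8, a gene that LPS also induces in macrophages. The share of counts from the mitochondrial genome was 2.13% to 2.23% in normoxic-EV and 2.91% to 3.05% in hypoxic-EV. Whether these differences have a part in the results below was not tested. In bulk RNA, fewer cells with a transcript and less of it per cell cannot be told apart.

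With hypoxic-EV, Cebpa, Tfeb, Runx1 and Mitf were higher and Cebpd, Cebpb and Spi1 were lower than with normoxic-EV, while Maf and Tfec were too low to test. Of the 9 genes, 7 passed the count filter, and each of these 7 was called by edgeR's quasi-likelihood test at a Benjamini-Hochberg adjusted p under 0.05, against 44.2% of the 13303 genes tested. By direction, 4 were called higher and 3 lower, against 22.7% and 21.5% of all genes tested. The CPM values of the groups did not overlap for 6 of the 7, the exception being Cebpb, against 52.8% of all genes tested. These counts are a description, since the genes were chosen with results of these data known. The changes were small in size. None reached 2-fold, and the median absolute log2 fold change was 0.29, with 0.21 over all genes tested. The authors' deposited table of 462 genes holds 0 of the 9, and the smallest absolute log2 fold change in that table is 1.001.

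**Figure D1:**
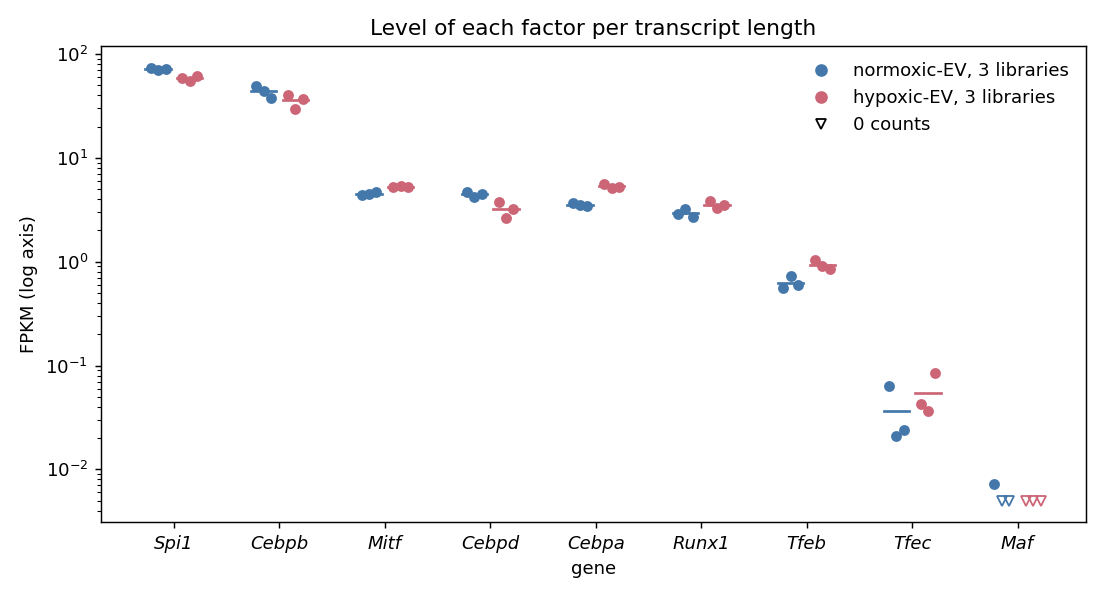
Deposited FPKM (fragments scaled to length and library size, log axis) of the 9 factors in each library, blue for normoxic-EV and red for hypoxic-EV, with a bar at the mean of 3 libraries where all had counts and open triangles for libraries with 0 counts. Spi1 and Cebpb lie above 29 FPKM in every library, 5 genes lie between 0.55 and 5.7 FPKM, and Tfec and Maf lie below 0.1 FPKM.

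Levels of different genes were compared per length, as the deposited FPKM. In normoxic-EV the order was Spi1 at 71.9 ± 2.11 FPKM (SD, n = 3), Cebpb at 43.9 ± 5.62, Mitf at 4.54 ± 0.128, Cebpd at 4.45 ± 0.249, Cebpa at 3.56 ± 0.0954, Runx1 at 2.96 ± 0.258 and Tfeb at 0.631 ± 0.0908 FPKM. Mitf and Cebpd did not differ beyond their spread there. In hypoxic-EV the order below Spi1 (58.7 ± 3.27 FPKM) and Cebpb (35.8 ± 5.57 FPKM) was another one: Cebpa at 5.32 ± 0.253 FPKM stood level with Mitf at 5.26 ± 0.0886 FPKM. Runx1 at 3.53 ± 0.283 FPKM came next, within the spread of Cebpd at 3.21 ± 0.540 FPKM, and Tfeb followed at 0.935 ± 0.0979 FPKM. Cebpa thus lay below Cebpd in each normoxic-EV library and above it in each hypoxic-EV library. Averaged over the 6 libraries, Spi1 was above 94.5% and Cebpb above 90.4% of the genes tested by FPKM, and Tfeb above 15.3%.

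Spi1 (ENSMUSG00000002111, GRCm39 chromosome 2, 90912735 to 90946101, plus strand) encodes PU.1. Its TMM-scaled level was 200.9, 188.7 and 192.4 CPM in normoxic-EV replicates 1 to 3 and 157, 150.3 and 168.1 CPM in hypoxic-EV replicates 1 to 3. Every hypoxic-EV library lay below every normoxic-EV library. The decrease was 18.3% (edgeR log2 fold change -0.29, SE 0.0501, adjusted p = 7.22e-05), and the log2 fold change ran from -0.33 to -0.25 with each library left out in turn. Counted fragments behind these levels numbered 2660 to 4329 a library, and no other gene with counts overlaps Spi1 in the deposited coordinates.

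Of the ETS relatives, Fli1, a factor of blood and endothelial cells, rose from 26.9 ± 0.563 to 39.2 ± 2.43 CPM (SD, n = 3, edgeR log2 fold change 0.54, adjusted p = 1.51e-06). Ets2, an effector of growth factor and Ras signalling in macrophages, fell from 319 ± 5.47 to 196 ± 7.15 CPM (edgeR log2 fold change -0.70, adjusted p = 8.45e-11). Spib and Spic, the closest relatives of Spi1, lay under the count filter at means of at most 0.216 CPM. Ets1 was called lower at a low level (1.52 and 0.803 CPM). Elf1, Elf4 and Etv6 were not called (edgeR adjusted p = 0.795, 0.226 and 0.0782). The called ETS transcripts thus moved in both directions. Irf8, which encodes a partner that binds DNA together with PU.1 and was picked for mention after its values were seen, stood at 58.9 and 60.8 CPM (edgeR log2 fold change 0.05, adjusted p = 0.52).

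The 21 genes listed as PU.1 targets from general knowledge were all tested, and 7 rose, 9 fell and 5 were not called, with a median log2 fold change of 0.04 against -0.001 over all genes tested. The share called was 76.2%, where 44.2% of all genes tested were called, 22.7% higher and 21.5% lower. Earlier results of these data were known when the list was drawn up, so the share is a description. Csf1r, the receptor of the growth factor M-CSF and a classical PU.1 target, rose from 174 ± 6.93 to 352 ± 13.4 CPM (SD, n = 3, edgeR log2 fold change 1.02, adjusted p = 6.93e-13), opposite in direction to Spi1. Hmgxb3, which overlaps Csf1r on the other strand at 20.7% of its count, had a log2 fold change of 0.01. Fes, a myeloid tyrosine kinase gene, and Ncf1, which encodes a cytosolic component of the NADPH oxidase, rose by log2 fold changes of 0.73 and 0.66, while Fcgr1, a high-affinity receptor for antibody, fell from 122 ± 3.32 to 74.1 ± 4.17 CPM. Without hypoxic-EV replicate 2 the number that rose was 4 in place of 7.

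The C/EBP genes moved in opposite directions. Cebpa (ENSMUSG00000034957, GRCm39 chromosome 7, 34818718 to 34821353, plus strand) encodes C/EBPalpha, which is needed to form granulocyte and monocyte progenitors and restrains cell division. Its levels were 9.69, 9.34 and 9.15 CPM in normoxic-EV replicates 1 to 3 and 14.6, 13.5 and 14 CPM in hypoxic-EV replicates 1 to 3. The groups lay well apart, with little spread inside either. Cebpa rose by 49.5% (edgeR log2 fold change 0.58, SE 0.0976, adjusted p = 5.49e-05), an increase within the SE of that of Tfeb given below, and its absolute log2 fold change exceeded that of 86.2% of the genes tested.

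Cebpb (ENSMUSG00000056501, GRCm39 chromosome 2, 167530835 to 167532338, plus strand) encodes C/EBPbeta, which inflammatory stimuli induce and which takes part in cytokine gene expression. It stood at 74.7, 66.1 and 57.5 CPM in normoxic-EV replicates 1 to 3 and 60.3, 44.9 and 56.3 CPM in hypoxic-EV replicates 1 to 3. The groups overlapped, because hypoxic-EV replicate 1 lay above normoxic-EV replicate 3. The fall (edgeR log2 fold change -0.29, SE 0.0903, adjusted p = 0.0121) was no longer called without normoxic-EV replicate 1 (-0.19, edgeR adjusted p = 0.127) or without hypoxic-EV replicate 2 (-0.18, edgeR adjusted p = 0.0655), nor by DESeq2 (adjusted p = 0.152). With each of the 6 libraries left out in turn, the edgeR adjusted p lay between 0.00196 and 0.127. Peds1, a lipid desaturase gene on the other strand, overlaps Cebpb, holds 199% of its counts and was itself lower (edgeR log2 fold change -0.24, adjusted p = 0.000962). In GENCODE M21 (GRCm38) exons of Peds1 cover 312 of the 1504 exonic bases of Cebpb, a gene of 1 exon, so the reads of the pair could not be separated with certainty.

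Cebpd (ENSMUSG00000071637, GRCm39 chromosome 16, 15705150 to 15708895, plus strand) encodes C/EBPdelta, an LPS-induced factor that sustains cytokine transcription. Its levels were 17.6, 15.6 and 16.8 CPM in normoxic-EV replicates 1 to 3 and 13.8, 10 and 12.3 CPM in hypoxic-EV replicates 1 to 3. All hypoxic-EV values were below all normoxic-EV values, and hypoxic-EV replicate 2 was the lowest library for Spi1, Cebpb and Cebpd alike. Cebpd fell by 28.2% (edgeR log2 fold change -0.48, SE 0.107, adjusted p = 0.00099), with a range of -0.58 to -0.36 over the libraries left out. Spidr, a DNA repair gene that overlaps it on the other strand with 540% of its counts, was higher (edgeR log2 fold change 0.23, adjusted p = 0.00109). Its exons cover 562 of the 3746 exonic bases of Cebpd in GENCODE M21.

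**Figure D2:**
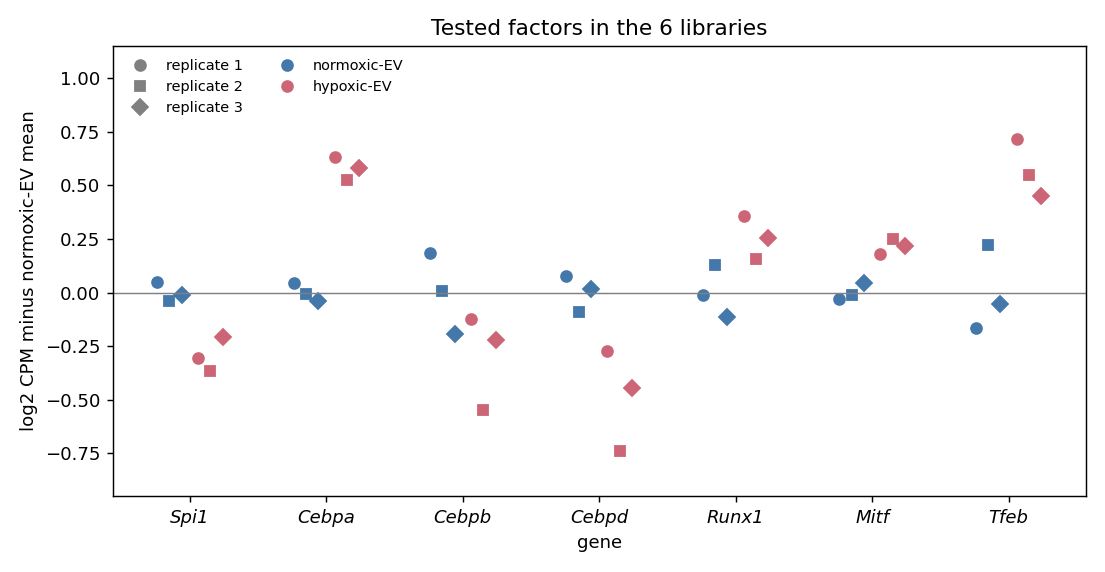
Log2 CPM of the 7 tested factors in each library minus the mean of the normoxic-EV libraries, blue for normoxic-EV and red for hypoxic-EV, with circles, squares and diamonds for replicates 1 to 3. Red points lie above all blue points for Cebpa, Runx1, Mitf and Tfeb, below them for Spi1 and Cebpd. For Cebpb 2 of the 3 red points lie below all blue points, and that of replicate 1 lies among them.

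Set together per length, Cebpa took a larger share of the summed FPKM of Cebpa, Cebpb and Cebpd with hypoxic-EV. Cebpb made up 85.6%, 85.1% and 82.7% of the summed FPKM of Cebpa, Cebpb and Cebpd in normoxic-EV replicates 1 to 3 and 81.3%, 79.3% and 81.3% in hypoxic-EV replicates 1 to 3. The share of Cebpa was 6.34%, 6.86% and 7.52% in normoxic-EV and 11.2%, 13.6% and 11.6% in hypoxic-EV. Both shares differed without overlap, at a two-sided exact permutation p of 0.1, the smallest that 3 against 3 libraries allow. The FPKM ratio of Cebpb to Cebpa accordingly ran from 11 to 13.5 in normoxic-EV and from 5.82 to 7.25 in hypoxic-EV. Cebpb nonetheless remained the most abundant of these 3 transcripts in every library. Over all 6 tested C/EBP genes, with Cebpe, Cebpg and Ddit3 added after the data were seen, Cebpa held 2.55 ± 0.152% with normoxic and 5.26 ± 0.140% with hypoxic vesicles (n = 3 each, SD, exact permutation p = 0.1, two-sided). The share of Cebpb over the 6 genes was 31.2 ± 1.55% and 35.2 ± 3.23%, so its difference had the opposite sign, with overlapping groups (n = 3 each, SD, exact permutation p = 0.3, two-sided). Ddit3, described below, held 41.2 ± 0.902% of that sum in normoxic-EV, more than Cebpb, and 27.0 ± 1.44% in hypoxic-EV.

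The promoters of the genes that moved apart are shown from RefSeq, GRCm38.p6, from 250 bases before to 50 bases after the annotated start, 5′ to 3′, with motif matches in capitals. The table of promoters holds 11 entries for 6 of the 9 genes. The motifs searched on both strands were GAGGAAGT for PU.1, TTGCGCAA for C/EBP, TGTGGT for RUNX, TCACGTGA and its core CACGTG for MiT factors, TGCTGAC for MAF and, added after the promoters were seen, TATAAA. Cebpa and Cebpb are given because they changed in opposite directions.
Cebpa, chr7:35119043-35119342, plus strand: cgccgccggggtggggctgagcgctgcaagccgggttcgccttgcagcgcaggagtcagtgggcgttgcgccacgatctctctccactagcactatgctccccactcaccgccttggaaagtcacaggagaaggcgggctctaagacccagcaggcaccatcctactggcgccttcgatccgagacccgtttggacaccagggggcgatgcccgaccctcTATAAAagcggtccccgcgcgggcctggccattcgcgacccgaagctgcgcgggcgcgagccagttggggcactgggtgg
Cebpb, chr2:167688665-167688964, plus strand: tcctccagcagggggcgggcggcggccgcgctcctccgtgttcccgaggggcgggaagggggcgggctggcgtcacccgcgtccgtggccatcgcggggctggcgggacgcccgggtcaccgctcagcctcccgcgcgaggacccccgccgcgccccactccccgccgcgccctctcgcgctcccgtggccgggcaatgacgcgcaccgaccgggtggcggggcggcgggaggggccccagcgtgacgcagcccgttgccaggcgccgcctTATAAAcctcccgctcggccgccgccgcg
Each of these windows held 1 match, to TATAAA, which 13.6% of the 32851 promoters of this length hold. It began 30 bases before the annotated start in Cebpa and 21 bases after it in Cebpb. Bases G and C made up 67.3% of the Cebpa window and 80.7% of the Cebpb window.

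Among further C/EBP relatives, Cebpg, which encodes a short partner protein of other C/EBP factors, fell from 122 ± 1.37 to 104 ± 5.47 CPM (SD, n = 3, edgeR log2 fold change -0.23, adjusted p = 0.000888). Ddit3, the stress-induced gene of CHOP, a C/EBP protein that pairs with the others, fell from 99.2 ± 10.8 to 46.7 ± 0.347 CPM (edgeR log2 fold change -1.08, adjusted p = 2.95e-11). Mars1, a tRNA ligase gene across from Ddit3 with 198% of its counts, was higher (log2 fold change 0.21). Cebpe, a gene of granulocyte and macrophage maturation, stood 26.3% higher (edgeR log2 fold change 0.34, adjusted p = 0.0283). That call ended by DESeq2 (adjusted p = 0.0614) and without normoxic-EV replicate 2 (edgeR log2 fold change 0.19, adjusted p = 0.206), hypoxic-EV replicate 1 (edgeR adjusted p = 0.0728) or hypoxic-EV replicate 3 (edgeR adjusted p = 0.1), with 0.0122 as the lowest value over the 6. Called genes of both directions stood side by side among these relatives too.

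Of 15 listed C/EBP targets, 12 were tested, and 10 fell, 0 rose and 2 were not called, with a median log2 fold change of -1.30. That is 83.3% called, against 44.2% of all genes tested, of which 21.5% were called lower. With each library left out in turn, 8 to 10 of the listed genes fell and 0 rose. The list holds inflammatory genes already known from earlier results of these data to be lower, so it is not independent evidence of a direction. Lcn2, which encodes the iron-sequestering protein lipocalin 2, fell from 2082 ± 39.1 to 580 ± 57.4 CPM (SD, n = 3). Csf3, the gene of the granulocyte growth factor G-CSF, fell from 231 ± 16.6 to 72 ± 9.12 CPM (edgeR log2 fold change -1.67, SE 0.0703, adjusted p = 1.25e-13). Il6 and Ptgs2 had log2 fold changes of -3.59 and -1.63. These decreases were several times as large, on the log2 scale, as those of Cebpb and Cebpd.

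Maf (ENSMUSG00000055435, GRCm39 chromosome 8, 116409681 to 116434533, minus strand), the gene of c-Maf, which drives Il10 in macrophages, was not detectable at this depth beyond a single fragment. It had 1 count in normoxic-EV replicate 1 and 0 counts in the other 5 libraries, a limit of at most 0.179 CPM per library. No fold is given for it.

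Of the 6 listed MAF targets, 2 were tested and both were called lower, where 44.2% of all genes tested were called, 21.5% lower. Il10, which encodes an anti-inflammatory cytokine, fell from 1.501 ± 0.452 to 0.481 ± 0.217 CPM (SD, n = 3). Il12b, a gene that c-Maf is known to repress, fell from 7.29 ± 1.54 to 0.712 ± 0.0946 CPM. Both genes also stand in the list of C/EBP targets, drawn up with earlier results known, so these falls are not separate or independent evidence. The complement genes C1qa, C1qb and C1qc and the receptor gene Vsig4, which mature tissue macrophages express, lay under the filter.

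Runx1 (ENSMUSG00000022952, GRCm39 chromosome 16, 92398354 to 92623037, minus strand) encodes the DNA-binding subunit of core binding factor, which is needed for the first blood stem cells and acts with PU.1 at myeloid enhancers. Its levels were 35.2, 38.8 and 32.8 CPM in normoxic-EV replicates 1 to 3 and 45.5, 39.6 and 42.3 CPM in hypoxic-EV replicates 1 to 3. The groups did not overlap, but normoxic-EV replicate 2 and hypoxic-EV replicate 2 nearly met. Runx1 rose 1.19-fold (edgeR log2 fold change 0.26, SE 0.0727, adjusted p = 0.00674). Without normoxic-EV replicate 3 it was no longer called (0.20, edgeR adjusted p = 0.057, range 0.00112 to 0.057 over the libraries left out).

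The partner gene Cbfb stood at 264 ± 4.11 and 274 ± 9.01 CPM (SD, n = 3, edgeR log2 fold change 0.05, adjusted p = 0.376) and Runx2, better known from bone, at 9.91 ± 1.18 and 11 ± 0.63 CPM (edgeR log2 fold change 0.14, adjusted p = 0.324). Runx2 is overlapped on the other strand by Supt3, which holds 137% of its counts. Runx3 lay under the filter. Of all 19 listed relatives and partners of the factors, 16 were tested, and 3 rose, 7 fell and 6 were not called (median log2 fold change -0.06), which makes 62.5% called beside 44.2% of all genes tested. Of 5 listed RUNX1 targets, 3 were tested and all 3 were called, 1 higher and 2 lower. Among all genes tested, 22.7% were called higher and 21.5% lower. Csf1r, which is also in the PU.1 list, rose, as given above. Csf2, the gene of the growth factor GM-CSF, fell from 6.05 ± 0.458 to 0.455 ± 0.141 CPM. Spi1, itself among the 9 genes described here, fell to a smaller extent. The list was drawn up with earlier results of these data known. The granulocyte genes Mpo and Elane lay under the filter.

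Runx1 has a distal and a proximal promoter, which counts per gene do not separate. The distal promoter is shown because it was the only window of the 11 that held the full MiT motif.
Runx1 distal, chr16:92826025-92826324, minus strand: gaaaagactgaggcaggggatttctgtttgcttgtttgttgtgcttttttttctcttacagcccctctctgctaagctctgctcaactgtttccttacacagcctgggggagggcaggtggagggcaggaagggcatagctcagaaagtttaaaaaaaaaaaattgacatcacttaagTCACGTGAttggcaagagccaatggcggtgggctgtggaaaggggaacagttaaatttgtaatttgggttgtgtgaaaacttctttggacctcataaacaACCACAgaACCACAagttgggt
The capitals mark TCACGTGA, beginning 72 bases before the start, with its core CACGTG inside it, and a pair of TGTGGT motifs on the opposite strand, beginning 28 and 36 bases after the start. The full MiT motif is held by 0.974% of all 32851 promoters, its core by 7.15% and the RUNX motif by 16.8%. The proximal window, chr16:92697280-92697579, held no match. Of the 11 windows, 0 held the PU.1 motif and 0 the C/EBP motif, which 3.2% and 0.183% of all promoters hold, and 2 of the 3 Mitf windows held TGCTGAC, as 4.67% of all do. Besides the distal Runx1 window, 1 Mitf window and the Tfec window held TGTGGT. A match is a run of letters and says nothing of binding.

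Mitf (ENSMUSG00000035158, GRCm39 chromosome 6, 97784013 to 97998310, plus strand) encodes the MiT factor known from pigment cells, mast cells and osteoclasts, the bone-resorbing relatives of macrophages. Its levels were 27.5, 27.9 and 29 CPM in normoxic-EV replicates 1 to 3 and 31.8, 33.5 and 32.7 CPM in hypoxic-EV replicates 1 to 3. Replicates lay close together and the groups were apart, so that an increase of 16% was called (edgeR log2 fold change 0.21, SE 0.0665, adjusted p = 0.0123). Over the libraries left out the adjusted p ran from 0.0182 to 0.0489. Mitf is transcribed from several promoters, and GENCODE M21 lists 8 transcripts, which the counts per gene do not separate.

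Tfeb (ENSMUSG00000023990, GRCm39 chromosome 17, 48047955 to 48103344, plus strand) encodes the regulator of lysosome formation and autophagy that starvation sends to the nucleus. It had 53, 71 and 77 counts in normoxic-EV replicates 1 to 3 and 99, 102 and 113 counts in hypoxic-EV replicates 1 to 3. In CPM these were 3.17, 4.15 and 3.42 against 5.84, 5.21 and 4.86, with every hypoxic-EV library above every normoxic-EV library. Tfeb rose 1.48-fold (edgeR log2 fold change 0.56, SE 0.155, adjusted p = 0.00559), the least precise estimate of the 7, with a range of 0.49 to 0.67 over the libraries left out.

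Tfec (ENSMUSG00000029553, GRCm39 chromosome 6, 16833372 to 16898440, minus strand), the MiT gene whose expression is largely restricted to macrophages, was under the filter. It had 6, 2 and 3 counts in normoxic-EV replicates 1 to 3 and 4, 4 and 11 counts in hypoxic-EV replicates 1 to 3, and the groups overlapped. Fitted without the filter, its log2 fold change was 0.68 (SE 0.623, edgeR adjusted p = 0.558), a value that depends on the prior count.

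Tfe3, the fourth gene of the family, was the most abundant. Its level was 111 ± 1.16 CPM with normoxic vesicles and 109 ± 4.09 CPM with hypoxic ones (SD, n = 3, edgeR log2 fold change -0.03, adjusted p = 0.61). Per length it made up 69.7 ± 0.674% of the summed FPKM of the 4 MiT genes in normoxic-EV, against 65.2 ± 1.14% in hypoxic-EV (n = 3 each, SD, exact permutation p = 0.1, two-sided). The share of Mitf was 26.4 ± 0.565% and 29.3 ± 1.35%, and that of Tfeb 3.67 ± 0.533% and 5.19 ± 0.416%, also at the smallest exact permutation p of 0.1. Tfec held 0.211 ± 0.141% and 0.302 ± 0.146% (two-sided exact permutation p = 0.5).

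**Figure D3:**
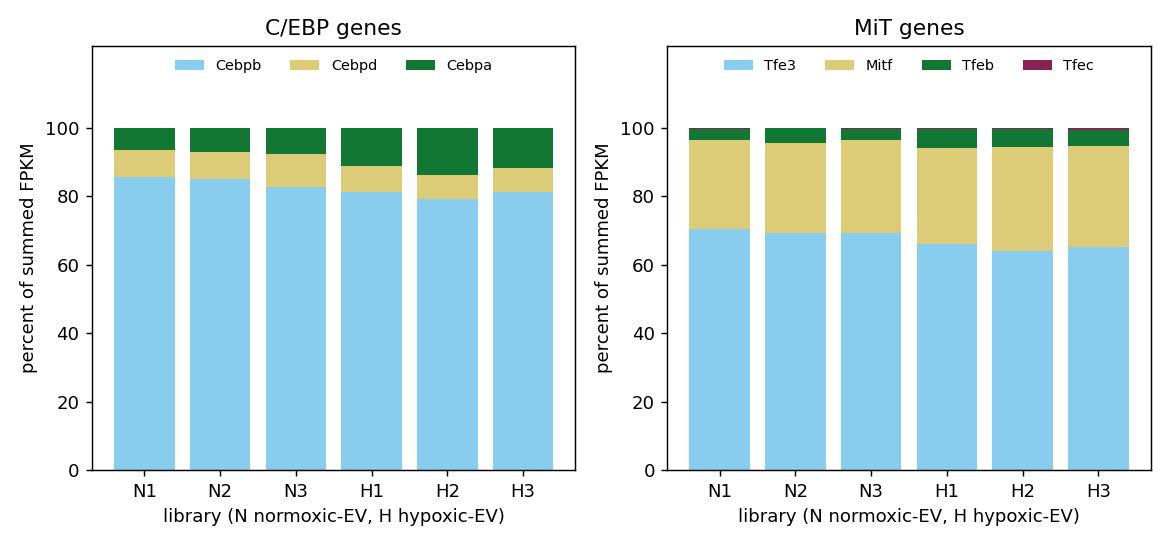
Percent of summed FPKM in each library for the C/EBP genes Cebpa, Cebpb and Cebpd (left) and the 4 MiT genes (right). N1 to N3 are normoxic-EV and H1 to H3 hypoxic-EV replicates, and Cebpa and Mitf take larger shares in each hypoxic-EV library than in any normoxic-EV library.

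**Figure D4:**
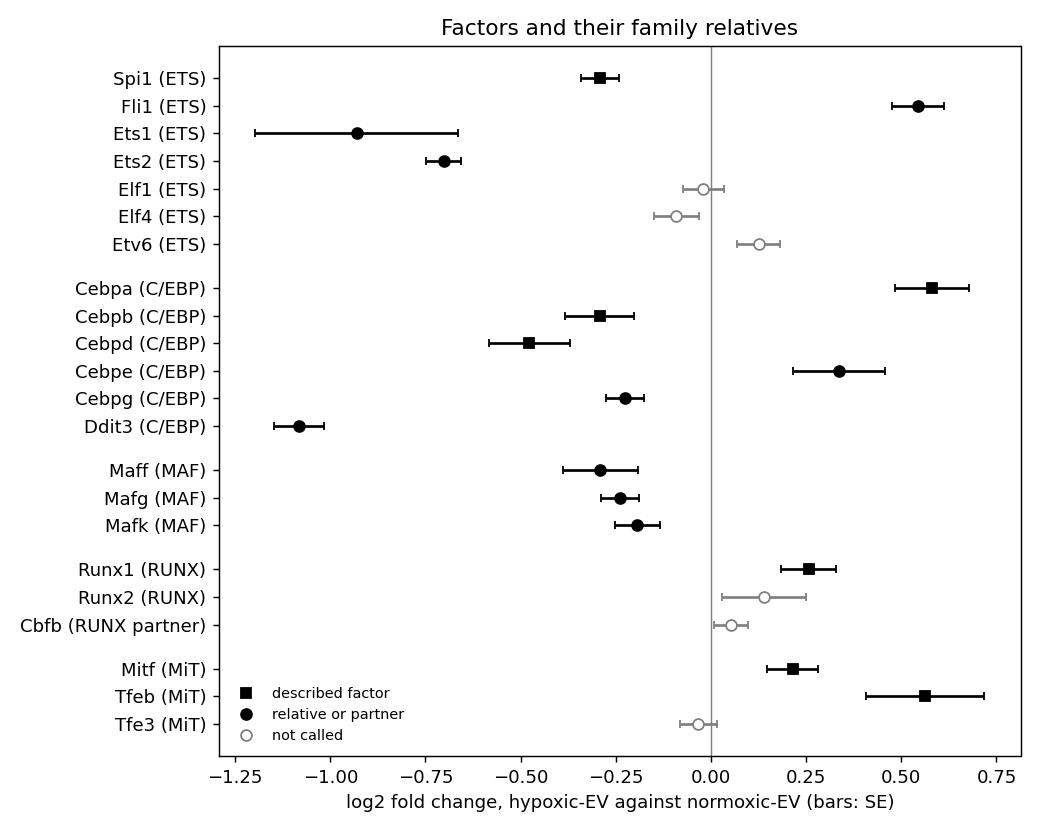
Log2 fold change of hypoxic-EV against normoxic-EV with its SE from edgeR, for the 7 tested factors (squares) and tested relatives and partners (circles), grouped by family, filled where called and open where not. The ETS and C/EBP families each hold called genes on both sides of 0.

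The genes listed as MiT targets, lysosomal and autophagy genes with some of the osteoclast, mostly went the other way from Mitf and Tfeb. Of 33 genes, 31 were tested, and 3 rose, 22 fell and 6 were not called (median log2 fold change -0.20). The called share was 80.6%, against 44.2% of all genes tested, of which 22.7% were higher and 21.5% lower. With each library left out in turn, 18 to 20 of the listed genes fell and 2 to 3 rose. Calls over all genes then numbered 4993 to 5778, in place of 5877. Sqstm1, which encodes the autophagy receptor p62, fell from 4202 ± 191 to 2569 ± 159 CPM (SD, n = 3, edgeR log2 fold change -0.71, adjusted p = 6.21e-10). Ctsd, the gene of the lysosomal protease cathepsin D, fell from 2430 ± 75.9 to 1464 ± 136 CPM (edgeR log2 fold change -0.73, adjusted p = 1.46e-09). Fnip2, whose product binds folliculin, a brake on MiT factors, fell by 0.44 on the log2 scale. Earlier results of these data on lysosomal genes were known when the list was drawn up, so the direction is not independent evidence.

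**Figure D5:**
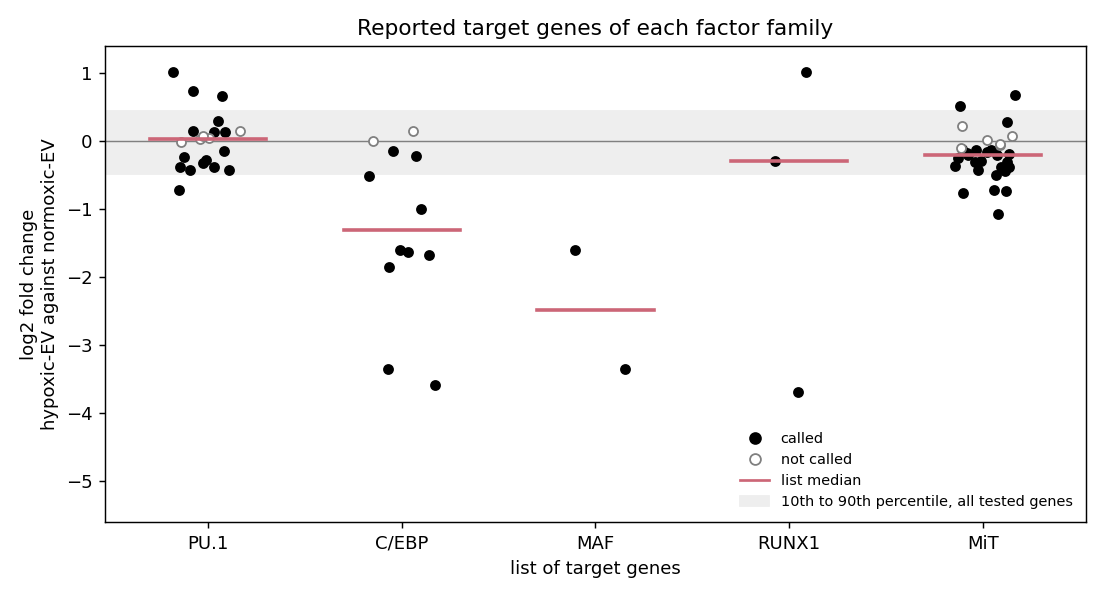
Log2 fold change of the tested genes in the lists of reported targets of PU.1, C/EBP, MAF, RUNX1 and MiT factors, filled where called and open where not, with a red bar at the list median and a grey band from the 10th to the 90th percentile of all 13303 genes tested (-0.48 to 0.45). Medians are 0.04 for PU.1, -1.30 for C/EBP, -2.48 for MAF with 2 genes, -0.29 for RUNX1 with 3 genes and -0.20 for MiT. Some genes stand in more than 1 list, among them both MAF genes, which are also in the C/EBP list.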

How the data were processed

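Counts per gene (whole numbers) and FPKM values for 6 libraries were deposited by the authors. Per the submitters' processing notes, HISAT2, featureCounts, DESeq2 and the build GRCm39 were used. Not given in the sources used here are tool versions, which annotation and strand setting served, and how multi-mapping reads were counted. Where 2 or more libraries had counts (22670 genes), the FPKM was the count over the library total and over 1 length per gene, within a relative tolerance of 1e-06. The authors' deposited table gives log2 fold changes and adjusted p-values.

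Counts were tested with edgeR 4.0.16 (R 4.3.3): filterByExpr (minimum count 10, minimum total 15), TMM scaling and the two-sided quasi-likelihood F-test, adjusted by Benjamini-Hochberg over 13303 genes. The SE is the log2 fold change divided by the square root of F. DESeq2 1.42.0, limma 3.58.1, other scalings and filters, a replicate block and each library left out were alternatives. Replicate pairs of a group differed by more than counting noise (chi-square per degree of freedom 2.72 to 5.84).

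The genes and lists were chosen with earlier results of these data known. Named were the 9 genes, their family relatives and, per list, the 4 called genes of lowest p; some genes this rule names are not reported here. Of 161 list symbols, 160 matched 1 row, and for the other the row with most counts was taken.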

Additional observations from a re-analysis of the deposited data

How the results depend on the processing

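Cebpa, Cebpd, Spi1, Mitf and Tfeb kept their direction and their call under DESeq2, limma-voom, 3 other scalings, 2 other filters, the replicate block and each library left out. Cebpb was not called by DESeq2 (log2 fold change -0.29, adjusted p = 0.152) and its log2 fold change ran from -0.38 to -0.18 over the libraries left out. That of Runx1 ran from 0.20 to 0.32. The cause was not tested. Over all genes, 5877 were called, 4889 by DESeq2 and 4993 to 5778 with a library left out. Same-numbered libraries did not deviate together (correlations -0.0349 to -0.0187), and with the replicate block 5662 genes and the same 7 factors were called. No scaling moved the median of all genes by 0.1. The shares cannot reach p under 0.1 with 3 against 3. Over all 6 tested C/EBP genes, an alternative added after seeing the data, the difference in the Cebpb share (hypoxic-EV minus normoxic-EV) was 3.96 percentage points in place of -3.82. That sum also holds Cebpe, Cebpg and Ddit3. Maf had 1 count in all and Tfec 11 counts in normoxic-EV and 19 in hypoxic-EV, which left both under the count filter.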

Other observations

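Of 28 other blood lineage factors listed, 20 were tested, and 5 rose, 6 fell and 9 were not called, so that 55% were called where 44.2% of all genes tested were. Without hypoxic-EV replicate 1 the number that rose was 3. Id1 and Id3, whose products bind E-proteins and keep them from DNA, rose from 5.67 ± 0.595 to 20.4 ± 2.55 CPM (SD, n = 3, edgeR log2 fold change 1.86, adjusted p = 5.31e-11) and from 9.22 ± 0.57 to 18.4 ± 2.84 CPM (log2 fold change 0.99). Id2, of the same family and the most abundant of the 3, fell from 47.3 ± 7.87 to 37.6 ± 2.57 CPM (edgeR log2 fold change -0.32, adjusted p = 0.00644), with overlapping groups, and was named after its values were seen. Zeb2, a repressor gene that keeps macrophages of different tissues in their identity, fell from 381 ± 9.45 to 269 ± 9.33 CPM (edgeR log2 fold change -0.50, adjusted p = 1.41e-08). Bcl6, a repressor of inflammatory genes, fell from 80.6 ± 3.09 to 59.9 ± 3.18 CPM. Myb, a gene of blood progenitors, had 0 counts in each library.

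Profiles were compared by the root mean square distance between log2 CPM values, each gene centred on its mean, over 6 libraries and 9462 protein-coding genes of at least 5 CPM. Nearest to Spi1 were Tgfb1, Stx3 and Emc7 (distances 0.0149, 0.0186 and 0.0192). Cebpa had Pacsin2, Erf and Aopep as neighbours (0.0294 to 0.03), Cebpb had Naa80, Trmt61a and Pskh1 (0.0516 to 0.0561) and Cebpd had Arid3b, H2-DMa and Tecpr1 (0.0535 to 0.058). For Runx1 they were Exosc5, Cisd3 and Msh5 (0.0281 to 0.0302), for Mitf Virma, Map4 and Cd72 (0.014 to 0.0154), and for Tfeb Ppargc1b, Pwwp3a and Whamm (0.0302 to 0.0511). The distance takes in the difference between the groups as well as the spread inside them.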
